A study of Homo sapiens with 8 samples.

Results

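The NRF2 and KEAP1 antioxidant program was examined by RNA-seq in cells labelled A549, a human non-small cell lung cancer line. It was taken as a list of 39 genes by symbol, and all 39 were found among the 58735 genes of the count table. They comprise 4 regulators (NFE2L2, which encodes NRF2, with KEAP1, MAFG and SQSTM1) and 35 genes of glutathione, thioredoxin, heme and iron, detoxification, NADPH supply, efflux and other functions. The list was compared between 4 EV libraries, from cells transduced with an empty lentiviral vector, and 4 KRT19-OVE libraries, from cells transduced with a lentivirus encoding Flag-tagged KRT19. Both were stable lines selected with puromycin and grown in RPMI-1640 with fetal bovine serum, and the labels give no further treatment. Keratin 19, the product of KRT19, is part of the keratin cytoskeleton of epithelia. The labels do not say whether the 4 libraries of a group came from separate cultures, so p-values measure only the spread between these libraries.

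NRF2 is a transcription factor that is bound by KEAP1 in the cytoplasm of unstressed cells and is then ubiquitinated by CUL3 and degraded. Oxidants and electrophiles modify cysteines of KEAP1, NRF2 escapes, pairs with a small MAF protein such as MAFG and binds antioxidant response elements (AREs) of genes for glutathione, thioredoxin and detoxification. Lung cancers often carry mutations of KEAP1 or NFE2L2, and A549 cells are known for a KEAP1 mutation with constitutively active NRF2 and abundant aldo-keto reductases and aldehyde dehydrogenases. This background frames the levels below and is not a result of these libraries.

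The label was checked first. KRT19 had 1 to 5 counts in the EV libraries and 4353 to 5147 in the KRT19-OVE libraries, so the group labels and the transgene went together. The paper, however, measured KRT19 mRNA by RT-PCR in A549 cells without the transgene. It also describes endogenous KRT19 protein in A549 cells, whereas KRT19 transcripts were nearly absent from the EV libraries. Of 5 epithelial markers, KRT8, KRT18 and KRT7 passed the filter on low counts, while EPCAM and CDH1 had at most 3 counts in every library. None of 6 lung epithelial markers passed the filter, and SFTPA1, SFTPA2, SFTPB and SFTPC had 0 counts in all libraries. A549 cells are known to have lost CDKN2A, CDKN2B and MTAP, yet CDKN2A had 1328 to 1824 counts, CDKN2B 466 to 659 and MTAP 653 to 870. These transcripts and the near-absence of EPCAM and CDH1 went against the A549 label, so the libraries are described as cells labelled A549. The extraction text of the labels names retina, and 5 of 7 retina markers had at most 3 counts in every library. Of the fibroblast, immune, endothelial and hepatocyte markers, 3 of 19 passed the filter, at no more than 54 counts. Total counts lay between 14073065 and 17054364 per library. KRT19-OVE replicate 3 stood apart from the other libraries of its group. The chi-square of its counts, divided by the degrees of freedom, was 7.72 to 13.6 against them and 2.79 to 3.76 among the other 3. EV replicate 3 was the furthest of the EV libraries, at 3.58 to 6.49 against the others, which were at 3.13 to 3.19 among themselves. For genes of the list, log2 fold changes that moved by over 1.5 times without KRT19-OVE replicate 3 are also given without it.

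To show the sequence through which NRF2 acts, the ARE core TGACNNNGC was searched on both strands of RefSeq promoters (GRCh38.p14, 250 bases before to 50 bases after the annotated start). A promoter was matched for 28 of the 39 genes, and 8 of these held the core (28.6%), as did 13.6% of all 27305 promoters and 15.3% of the 10339 promoters of tested genes. The 8 sites are printed 5′ to 3′ along the gene with 10 bases on either side and the core in capitals, shown as its reverse complement where it lay on the opposite strand. They show the range met in these libraries, since the first 5 belong to genes in the upper 50% of levels, ME1 was low, and the last 2 belong to genes at or near 0.
TXNRD1 (chr12:104215670-104215698, plus strand): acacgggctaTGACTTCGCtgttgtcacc
PGD (chr1:10398853-10398881, plus strand): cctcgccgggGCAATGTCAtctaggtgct
GCLM (chr1:93909446-93909474, minus strand): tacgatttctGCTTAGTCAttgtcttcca
CBR1 (chr21:36069855-36069883, plus strand): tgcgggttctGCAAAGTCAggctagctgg
PIR (chrX:15493289-15493317, minus strand): gccgcgaagcGCTGAGTCAcggtgaggct
ME1 (chr6:83431170-83431198, minus strand): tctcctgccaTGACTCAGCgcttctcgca
GPX2 (chr14:64942849-64942877, minus strand): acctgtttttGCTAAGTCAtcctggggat
CYP4F11 (chr19:15935005-15935033, minus strand): ctgtgcccatGCTGTGTCAccctgagctg
The first base of the core lay at -99 from the start in TXNRD1, -201 in PGD, -34 in GCLM, -159 in CBR1, 26 in PIR, -137 in ME1, -122 in GPX2 and -156 in CYP4F11. TXNRD1 and ME1 each held 1 further core, at -8 and 11. The printed cores of ME1 and PIR overlap the AP-1 sequence TGANTCA, which occurs in 4.28% of the promoters of tested genes. The same degenerate pattern was thus found beside genes of very different level, although the bases within it differed between most of the sites. A match is a description of the sequence and not evidence of binding, and an ARE outside this window would not be seen.

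Levels were compared between genes as RPKM (counts scaled by library size and by gene length), averaged over the 8 libraries. Of the 39 genes, 11 were high, which means in the top 10% of the 14621 genes tested, 14 were in the rest of the upper 50% and 8 in the lower 50%. The remaining 6 did not pass the filter on low counts, and 3 of these (AKR1C3, ALDH1A1 and CYP4F11) were at the floor, with at most 3 counts in every library. KEAP1 and GSR lay closest to the boundary of the high class, with 10.5% and 9.86% of the tested genes above them. The high and the floor genes did not follow the roles evenly, as the plot of levels by role shows.

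**Figure D1:**
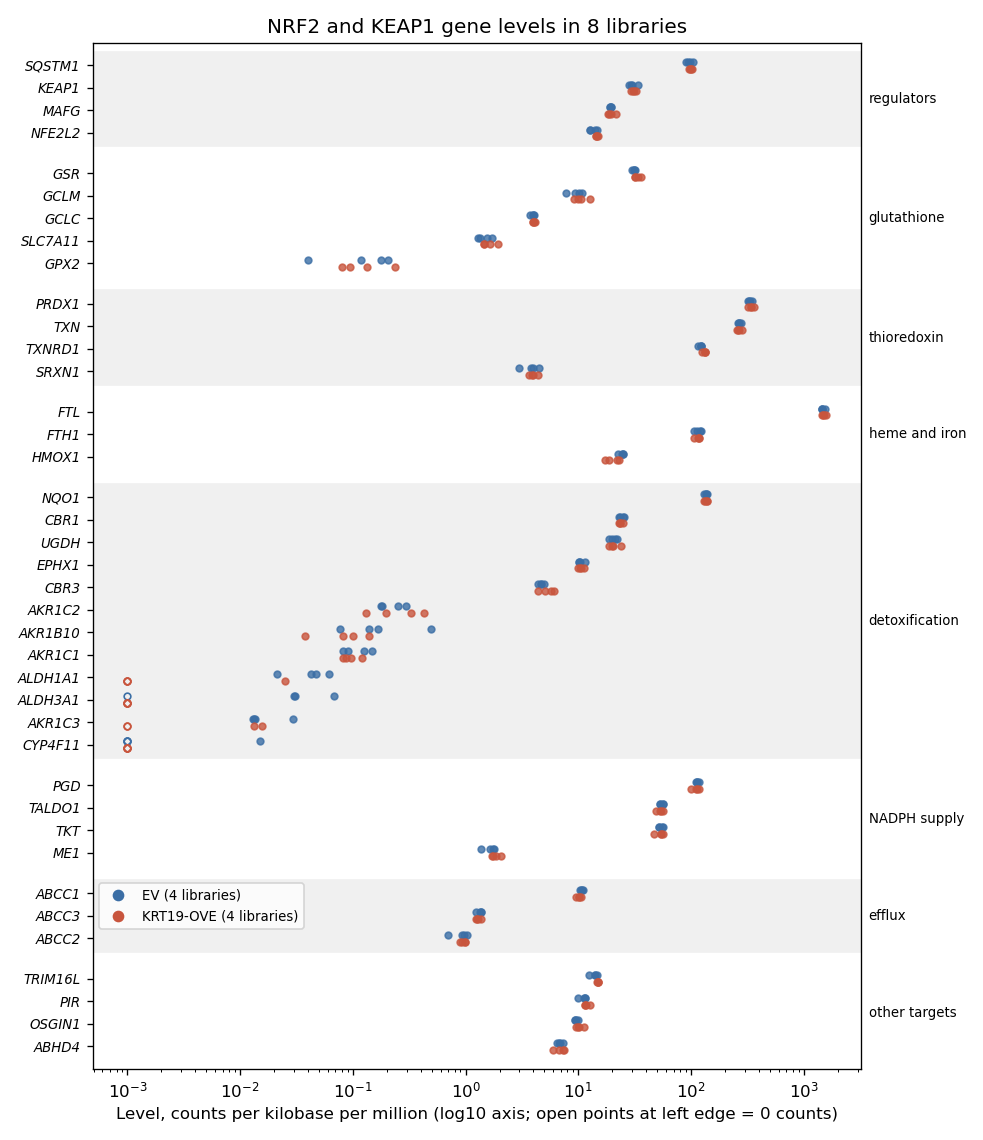
Level of each of the 39 genes in RPKM (log10 axis), grouped by role, with 1 point per library, blue for 4 EV and red for 4 KRT19-OVE libraries and open points at the left edge for libraries with 0 counts. FTL was at the top at a mean of 1497 RPKM, while 7 of the 12 detoxification genes lay below 1 RPKM.

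FTL, PRDX1 and TXN had the highest levels of the list, followed by NQO1 and TXNRD1, while HMOX1 of the heme and iron group was of middle level at 22.1 RPKM. FTL, the light chain of the iron store ferritin, was at 1481 ± 43.4 RPKM in EV and 1513 ± 48.3 in KRT19-OVE libraries (SD, n = 4 each), with 0.0821% of the tested genes above it. FTH1, the ferritin heavy chain, was at 115.2 ± 6.35 and 113.9 ± 5.32 RPKM (SD, n = 4 each), but 29.7% of its sequence words (stretches of 75 bases of its transcripts) also occur in other genes, mostly pseudogenes, and how such reads were counted is not given in the sources used here. PRDX1, a peroxidase that uses thioredoxin, had a mean of 335.2 RPKM, thioredoxin itself (TXN) 267.9 and thioredoxin reductase (TXNRD1) 125.3. SRXN1, which repairs oxidized peroxiredoxins, was low at 3.89 RPKM. The exons of SRXN1 are overlapped over 85.0% of their bases by another annotated gene on the same strand, so its level is uncertain. On the opposite strand, other genes overlap 24.9% of the exon bases of PRDX1, 62.4% of those of FTH1 and 22.0% of those of SQSTM1. They also overlap 42.2% of those of CBR3, 18.9% of those of CBR1 and 17.7% of those of NQO1, with smaller shares in further genes. Without a known strand setting their reads cannot be told apart. Of the sequence words of FTL, 9.9% also occur in FTLP3.

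The 3 genes of the list from the pentose phosphate pathway, which supplies NADPH, were also high. PGD had a mean of 112.2 RPKM, TALDO1 53.9 and TKT 53.2, while ME1, which makes NADPH from malate, was at 1.74 RPKM, with 69.8% of the tested genes above it. In the glutathione group, GSR, which regenerates reduced glutathione, was at 32.1 RPKM. The 2 subunits of glutamate-cysteine ligase were at 10.0 (GCLM, modifier) and 3.97 RPKM (GCLC, catalytic), and the cystine importer SLC7A11 was at 1.55 RPKM. GPX2, a glutathione peroxidase, had 1 to 6 counts per library.

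As a ratio of the highest to the lowest mean RPKM, detoxification genes spanned the widest range of levels. NQO1, a quinone reductase and a widely used NRF2 target, was high at 135.3 RPKM. The carbonyl reductase CBR1 (24.0), UGDH (20.6), the epoxide hydrolase EPHX1 (10.5) and CBR3 (4.99 RPKM) were in the upper 50%. All 4 aldo-keto reductases of the list were at the bottom. AKR1C2 had 14 to 47 counts per library, AKR1C1 10 to 22, AKR1B10 1 to 14 and AKR1C3 0 to 2. AKR1C1 and AKR1C2 are near-identical copies, and 23.6% and 28.5% of their sequence words occur in another gene, so their counts are uncertain. Of the aldehyde dehydrogenases, ALDH3A1 had 4, 2, 0 and 2 counts in the EV libraries and 0 in each KRT19-OVE library. ALDH1A1 had 2, 1, 2 and 3 counts in EV and 0, 1, 0 and 0 in KRT19-OVE libraries. CYP4F11, a cytochrome P450, had 1 count in 1 EV library and 0 elsewhere. Since A549 cells are known for abundant aldo-keto reductases and aldehyde dehydrogenases, these low counts also went against the A549 label, with the reservation that a few widely expressed genes (GPX1, TXNIP and PRDX2) were near 0 in this table as well. Another 3 aldo-keto reductases outside the list were of middle level, at 18.0 (AKR1A1), 28.1 (AKR1B1) and 31.5 RPKM (AKR7A2). Where a library had 0 counts, levels of up to 0.176 to 0.213 CPM (counts scaled to the library size), depending on its depth, could not be seen, a limit that covers counting error only.

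Of the efflux pumps, ABCC1 was at 10.4 RPKM, ABCC3 at 1.31 and ABCC2 at 0.927. The other targets were of middle level, with TRIM16L at 14.3 RPKM, PIR at 11.4, OSGIN1 at 9.87 and ABHD4 at 6.84. TRIM16L shares 36.2% of its sequence words with other genes, mainly TRIM16.

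To determine whether KRT19 overexpression went with a change of this program, the 33 genes that passed the filter were compared between the groups within the test of all 14621 genes. None had an adjusted p under 0.05 (edgeR quasi-likelihood test, Benjamini-Hochberg). The call rate over all tested genes was 0.00684%, which is 1 gene, KRT19 itself. The lowest adjusted p among the 33 was 0.868, for HMOX1. Without adjustment, 2 of 33 genes had a p under 0.05, HMOX1 on the lower and TXNRD1 on the higher side, against 5.41% of all tested genes (2.85% higher and 2.56% lower). The 4 values of one group lay outside those of the other for 2 genes, TXNRD1 and GSR, both higher in KRT19-OVE libraries, against 3.44% of all tested genes (1.63% higher and 1.81% lower). Each of these counts is 2 genes of 33, which is too few to set the list apart from all genes tested. All 39 genes took 0.631 to 0.640% of the counts in EV and 0.638 to 0.656% in KRT19-OVE libraries. The median log2 fold change was 0.03 over the 33 genes and 0.0051 over all genes tested, with 21 of the 33 values above 0 where 52.2% of all tested genes were.

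**Figure D2:**
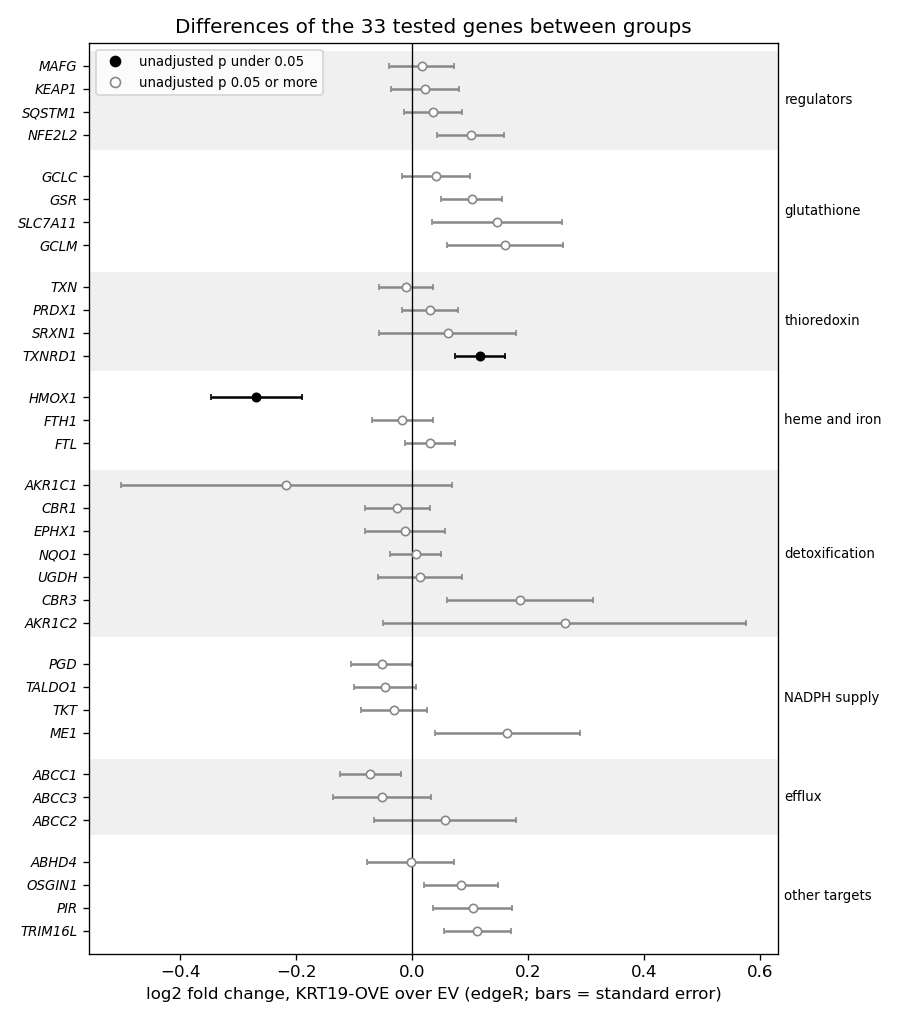
log2 fold change of KRT19-OVE over EV for the 33 tested genes by role (edgeR), with bars for the standard error and filled points for an unadjusted p under 0.05. HMOX1 at -0.27 and TXNRD1 at 0.12 are filled, and no gene passed the adjusted threshold.

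The regulators differed little. NFE2L2 (ENSG00000116044, minus strand of chromosome 2, 177227595 to 177392697, GRCh38) was at 83.5, 87.9, 76.2 and 76.4 CPM in EV replicates 1 to 4 and at 87.1, 85.2, 86.0 and 89.3 CPM in KRT19-OVE replicates 1 to 4. Its log2 fold change was 0.10 ± 0.058 (SE, adjusted p = 0.906 in edgeR), and EV replicate 2 lay above 3 of the 4 KRT19-OVE libraries, so the groups overlapped. Another annotated gene shares 17.6% of the exon bases of NFE2L2 on the same strand.

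KEAP1 (ENSG00000079999, minus strand of chromosome 19, 10486120 to 10503741) was at 106.7, 110.8, 126.2 and 112.0 CPM in EV and at 121.5, 114.9, 109.5 and 117.1 CPM in KRT19-OVE libraries. These values were interleaved, with a log2 fold change of 0.02 ± 0.059 (SE, adjusted p = 0.973 in edgeR) and a 95% interval (normal, from the SE) of -0.093 to 0.14. Without KRT19-OVE replicate 3 the log2 fold change of KEAP1 was 0.049. MAFG was at 101.4, 99.97, 100.2 and 101.4 CPM in EV and at 95.4, 101.9, 112.0 and 98.4 CPM in KRT19-OVE libraries. The EV values of MAFG were nearly equal, the KRT19-OVE values lay on both sides of them, and the log2 fold change was 0.02 ± 0.056 (SE) and -0.032 without KRT19-OVE replicate 3. SQSTM1, the autophagy adaptor p62 that sequesters KEAP1 and is itself an NRF2 target, was at 691, 713, 796 and 755 CPM in EV and at 778, 754, 730 and 768 CPM in KRT19-OVE libraries. Again the groups overlapped, with a log2 fold change of 0.04 ± 0.050 (SE).

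HMOX1, heme oxygenase 1 (ENSG00000100292, plus strand of chromosome 22, 35380361 to 35394214), had the lowest p of the list. It was at 58.9, 59.7, 59.4 and 54.5 CPM in EV replicates 1 to 4 and at 54.8, 52.6, 41.2 and 44.7 CPM in KRT19-OVE replicates 1 to 4. KRT19-OVE replicates 3 and 4 were the lowest of all libraries, and replicate 1 lay just above EV replicate 4, so the groups overlapped. The log2 fold change was -0.27 ± 0.079 (SE), a difference of -17.0%, with an unadjusted p of 0.00335 and an adjusted p of 0.868 (edgeR). Without KRT19-OVE replicate 3 it was -0.20, and without KRT19-OVE replicate 1 it was -0.34. HMOX1 passed the adjusted threshold under 1 of 15 alternatives, the looser filter (adjusted p = 0.0303, range over the alternatives 0.0303 to 0.999).

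The ferritin genes, which like HMOX1 serve iron handling, did not share this pattern. FTL was at 1279, 1283, 1282 and 1358 CPM in EV and at 1340, 1283, 1310 and 1382 CPM in KRT19-OVE libraries. FTH1 was at 241.5, 246.6, 217.8 and 229.7 CPM in EV and at 232.0, 237.3, 215.8 and 239.8 CPM in KRT19-OVE libraries. Both overlapped between the groups, at log2 fold changes of 0.03 ± 0.044 and -0.02 ± 0.053 (SE, 0.015 for FTH1 without KRT19-OVE replicate 3), and the difference between HMOX1 and the ferritin genes was not tested.

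TXNRD1 (ENSG00000198431, plus strand of chromosome 12, 104215779 to 104350305) was at 815.0, 816.9, 814.9 and 778.9 CPM in EV and at 835.4, 884.3, 893.8 and 885.5 CPM in KRT19-OVE libraries. All 4 KRT19-OVE values lay above all EV values, with EV replicate 4 and KRT19-OVE replicate 1 each the lowest of their group. The log2 fold change was 0.12 ± 0.043 (SE), a difference of 8.47%, with an unadjusted p of 0.0147 and an adjusted p of 0.906 (edgeR). Without EV replicate 4 the unadjusted p was 0.0579 and the log2 fold change 0.10. Its partners TXN and PRDX1 did not separate the groups. TXN was at 300.2, 305.1, 318.8 and 303.7 CPM in EV and at 294.0, 296.2, 305.7 and 323.4 CPM in KRT19-OVE libraries (log2 fold change -0.01 ± 0.047, SE). PRDX1 was at 502.8, 499.6, 525.9 and 490.3 CPM in EV and at 517.7, 513.3, 484.0 and 547.6 CPM in KRT19-OVE libraries (0.03 ± 0.048, SE). SRXN1 had a log2 fold change of 0.06 ± 0.12 (SE). Without KRT19-OVE replicate 3 the log2 fold change was 0.061 for PRDX1 and 0.012 for SRXN1.

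In the glutathione group, the log2 fold changes of the 4 tested genes lay between 0.04 and 0.16. GSR (ENSG00000104687, minus strand of chromosome 8, 30678061 to 30727999) was at 118.6, 116.7, 118.0 and 112.0 CPM in EV and at 119.6, 126.3, 134.6 and 119.1 CPM in KRT19-OVE libraries. The groups did not overlap, but KRT19-OVE replicates 1 and 4 lay just above EV replicate 1. The log2 fold change was 0.10 ± 0.053 (SE, unadjusted p = 0.0709, adjusted p = 0.906 in edgeR) and 0.06 without KRT19-OVE replicate 3. GCLM was at 58.6, 54.8, 41.9 and 50.5 CPM in EV and at 49.7, 57.3, 68.9 and 53.7 CPM in KRT19-OVE libraries. EV replicate 3 was the lowest and KRT19-OVE replicate 3 the highest library for GCLM, and the other 6 were interleaved. Its log2 fold change of 0.16 ± 0.10 (SE) became 0.06 without KRT19-OVE replicate 3 and 0.07 without EV replicate 3. KRT19-OVE replicate 3 also had the most counts of SLC7A11 (321 counts, against 204 to 274 in the other libraries), and the log2 fold change of SLC7A11 was 0.15 ± 0.11 (SE) with KRT19-OVE replicate 3 and 0.05 without it. GCLC differed by 0.04 ± 0.059 (SE).

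**Figure D3:**
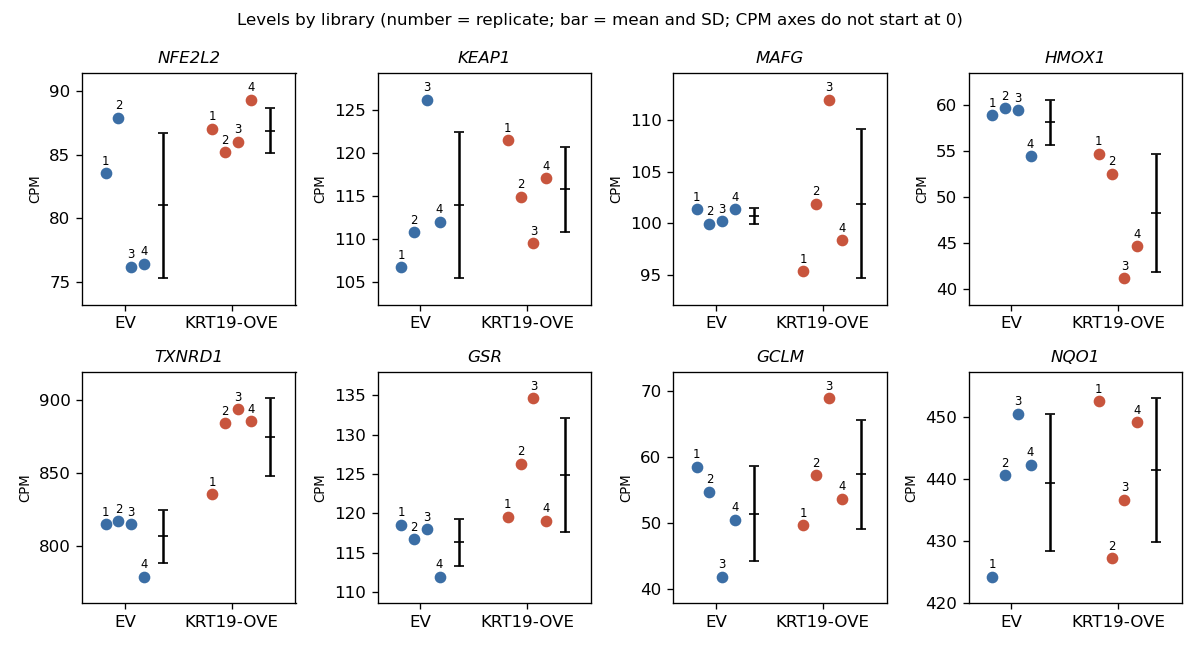
CPM of 8 genes in each library, with the replicate number above each point and the mean and SD of each group as a bar (axes do not start at 0). TXNRD1 and GSR show no overlap between groups, HMOX1 overlaps by 1 KRT19-OVE library, and KRT19-OVE replicate 3 is the highest library for MAFG, TXNRD1, GSR and GCLM and the lowest for HMOX1.

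Detoxification genes showed no common direction, with 4 of 7 tested genes above 0. NQO1 was at 424.3, 440.6, 450.5 and 442.3 CPM in EV and at 452.5, 427.3, 436.7 and 449.1 CPM in KRT19-OVE libraries. Its log2 fold change was 0.0064 ± 0.044 (SE), among the most precise of the list, and 0.012 without KRT19-OVE replicate 3. CBR1 was at 60.8, 62.3, 57.4 and 56.7 CPM in EV and at 56.8, 61.3, 57.6 and 57.4 CPM in KRT19-OVE libraries, with overlapping groups (-0.02 ± 0.056, SE). AKR1C1 had 12, 12, 18 and 22 counts in EV and 14, 10, 13 and 16 in KRT19-OVE libraries (log2 fold change -0.22 ± 0.29, SE), and the log2 fold change was -0.049 without EV replicate 4 and -0.34 without EV replicate 2. AKR1C2 had 29, 27, 19 and 20 counts in EV and 14, 18, 47 and 32 in KRT19-OVE libraries (0.26 ± 0.31, SE). For AKR1C2, KRT19-OVE replicates 3 and 4 were above and replicates 1 and 2 below every EV library in counts, and the log2 fold change was -0.06 without replicate 3 and 0.50 without replicate 1. CBR3, EPHX1 and UGDH had log2 fold changes between -0.01 and 0.19, and that of UGDH was 0.01 with and -0.061 without KRT19-OVE replicate 3.

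Among the genes of NADPH supply, the 3 pentose phosphate genes were lowest in KRT19-OVE replicate 3. PGD was at 337.1, 331.5, 351.6 and 334.4 CPM in EV and at 346.9, 336.9, 294.8 and 327.9 CPM in KRT19-OVE libraries. TALDO1 was at 160.9, 158.2, 168.9 and 170.0 CPM in EV and at 170.5, 159.1, 146.1 and 161.4 CPM in KRT19-OVE libraries. TKT, also of this pathway, was at 443 CPM in that library and at 489 to 538 CPM in the other libraries. Their log2 fold changes were -0.05 ± 0.052, -0.05 ± 0.054 and -0.03 ± 0.057 (SE), and without KRT19-OVE replicate 3 they were -0.0057, -0.0068 and 0.02. ME1 had a log2 fold change of 0.16 ± 0.13 (SE) at 69 to 103 counts per library.

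ABCC1, a pump of glutathione conjugates, was at 80.9, 78.2, 80.2 and 83.2 CPM in EV and at 77.3, 79.6, 73.0 and 77.0 CPM in KRT19-OVE libraries. The values were mostly lower in KRT19-OVE libraries but overlapped, at a log2 fold change of -0.07 ± 0.052 (SE). ABCC3 had 198, 219, 196 and 221 counts in EV and 199, 184, 207 and 186 in KRT19-OVE libraries (log2 fold change -0.05 ± 0.085, SE), and ABCC2 differed by 0.06 ± 0.12 (SE). TRIM16L was at 53.9, 62.8, 60.6 and 61.0 CPM in EV and at 65.2, 65.2, 62.8 and 64.7 CPM in KRT19-OVE libraries. The separation of TRIM16L was broken only by EV replicate 2, which lay just above KRT19-OVE replicate 3, and the log2 fold change was 0.11 ± 0.058 (SE, unadjusted p = 0.0693 in edgeR). PIR, an iron-binding nuclear protein, was at 28.6, 28.0, 28.7 and 24.9 CPM in EV and at 31.6, 28.5, 28.9 and 29.3 CPM in KRT19-OVE libraries (0.11 ± 0.068, SE). OSGIN1 and ABHD4 had log2 fold changes of 0.08 ± 0.064 and -0.0023 ± 0.075 (SE), and ABHD4 was at 0.059 without KRT19-OVE replicate 3.

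**Figure D4:**
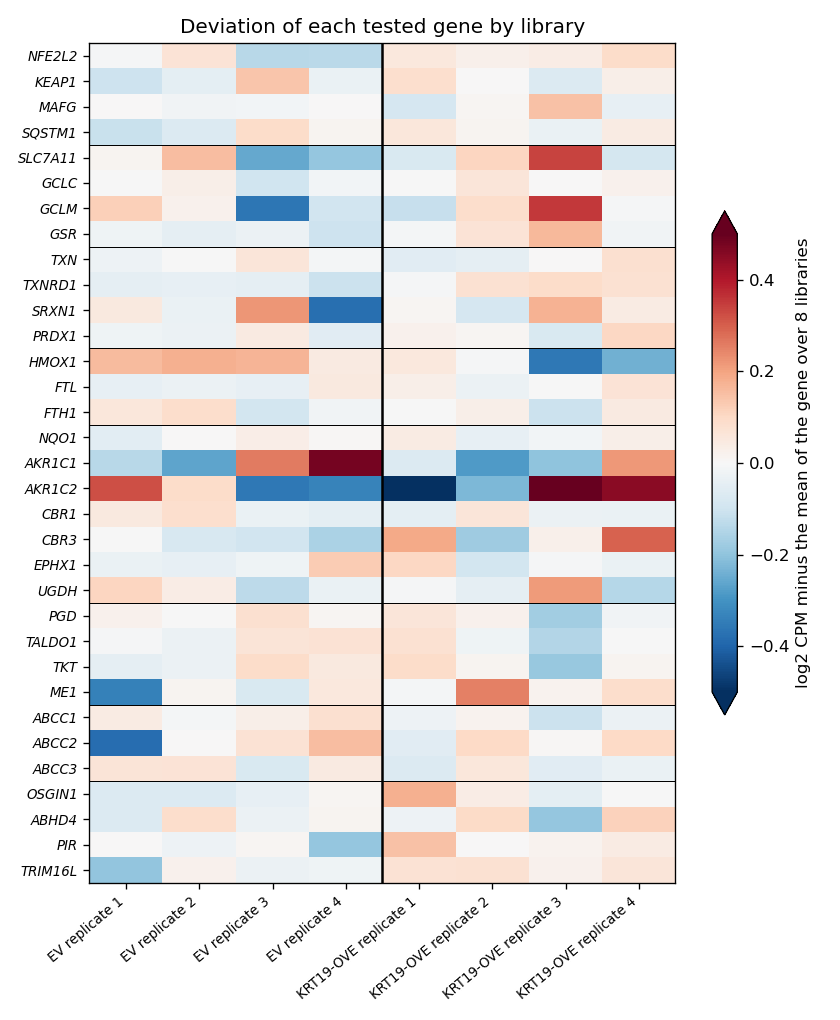
log2 CPM of each tested gene (rows, ordered by role as in the plot of levels) in each library minus the mean of that gene over all 8 libraries, with EV on the left and KRT19-OVE on the right of the vertical line. KRT19-OVE replicate 3 deviates most for AKR1C2 (0.81), HMOX1 (-0.36), GCLM (0.35) and SLC7A11 (0.34), and EV replicate 3 deviates the other way for GCLM (-0.36).

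Of the 33 tested genes, KRT19-OVE replicate 3 was the highest library of its group for 8 (24.2%, against 33.1% of all tested genes) and the lowest for 12 (36.4%, against 32.9%). Whether its distance from the other libraries has a part in the values of GCLM, SLC7A11 and the pentose phosphate genes was not tested beyond leaving it out.

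Other genes of the pathway were read from a list of 67, of which 57 passed the filter. None passed the adjusted threshold (smallest adjusted p = 0.906 in edgeR). One had an unadjusted p under 0.05, PGLS of the pentose phosphate pathway, with a log2 fold change of -0.14 ± 0.066 (SE, unadjusted p = 0.0448). This is 1 of 57 genes, where 5.41% of all tested genes had such a p (2.56% lower). PGLS was lowest in KRT19-OVE replicate 3, at 47.3 CPM against 51.5 to 60.1 CPM in the other libraries. The median log2 fold change of the 57 genes was -0.0067, with 25 above and 32 below 0, where 52.2% of all tested genes were above 0. The repressor BACH1, which competes with NRF2 for AREs, differed by 0.02 ± 0.067, and CUL3, which ubiquitinates NRF2 with KEAP1, by 0.02 ± 0.058 (SE). For both, KRT19-OVE replicate 3 was the highest of all libraries, at 72.9 CPM for BACH1 and 121.6 CPM for CUL3. The rest of its group lay at 61.65 to 63.2 and at 110.6 to 112.9 CPM. Log2 fold changes without that library are not given for single genes outside the list. By level, 10 of the 67 genes were high, PRDX5 (255.4 RPKM) and GPX4 (120.2 RPKM) at the top. At the floor were 9 genes, among them ADH7, NR0B1, CES1, UGT1A6 and GSTM1. Other genes hold 47.9% of the sequence words of UGT1A6, 42.4% of those of GSTM1 and 30.9% of those of CES1, so these counts are uncertain. Chosen after their values were seen, GPX1, a glutathione peroxidase, and TXNIP, the thioredoxin inhibitor, were also at the floor, with 0 to 3 and 0 to 2 counts, and PRDX2, a cytosolic peroxiredoxin that did not pass the filter, had 0 to 5. A pseudogene holds 11.0% of the sequence words of GPX1, none of those of TXNIP and PRDX2 occur in another gene, and 14.1% of the exon bases of PRDX2 are overlapped on the opposite strand.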

How the data were processed

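For 8 libraries the authors deposited whole-number counts by gene, not normalized, and gene lengths that equal the merged exons of GENCODE 29 for all 58735 genes. The submitters' processing notes name hg38, Bowtie 0.12.2, featureCounts 1.5.0-p3 and DESeq2. Strand setting and the handling of shared reads are not given in the sources used here. Genes were kept by filterByExpr (14621 genes, at least 99.8% of the counts), scaled by TMM and tested with glmQLFit and glmQLFTest (edgeR 4.0.16, R 4.3.3) with the group as the only term. P-values were two-sided and adjusted over all genes tested. Log2 CPM used a prior count of 2. Shared sequence was the percent of 75-base words, 1 in 8 kept, found in transcripts of another gene. The gene list, roles and tests were chosen with earlier results of these data known. Values by library are given for regulators, the 2 highest genes per role, genes with an unadjusted p under 0.05 or no overlap, and AKR1C1 and AKR1C2. Alternatives were DESeq2 1.42.0 (size factors, Wald test), upper-quartile scaling, limma-voom with sample weights (limma 3.58.1), looser (1 count in all) and stricter (5 CPM in 4 libraries) filters, the replicate block and leaving out each library.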

Additional observations from a re-analysis of the deposited data

Results flagged for a closer look

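By Dixon's test at the 95% level, on log2 CPM, the distance from an extreme library to its neighbour was divided by the range of the 4. It exceeded the critical value in 7 of 68 groups of 4, where chance gives about 3.4. In EV replicate 4, TXNRD1 was lowest (9.61 against 9.67 in the others, gap of 0.949 of the range), HMOX1 was lowest (5.77 against 5.88 to 5.90, 0.851), FTL was highest (10.4 against 10.3, 0.942) and EPHX1 was highest (4.85 against 4.68 to 4.70, 0.877). TXNRD1 was also lowest in KRT19-OVE replicate 1 (9.71 against 9.79 to 9.80, 0.842). ABCC3 was lowest in EV replicate 3 (3.59 against 3.71 to 3.74, 0.854). KRT19 was lowest in KRT19-OVE replicate 3 (8.17 against 8.27 to 8.28, 0.949). EV replicate 4 thus holds 4 of the 7. Without it, the log2 fold change was 0.10 for TXNRD1 and -0.30 for HMOX1. That of FTL was 0.052 without and 0.031 with it, and that of EPHX1 0.029 without and -0.012 with it.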

How the results depend on the processing

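The absence of adjusted calls among these genes held under 14 of 15 alternatives, and 1 gene, HMOX1, passed with the looser filter (30250 genes tested). HMOX1 kept its direction and an unadjusted p under 0.05 under all 15, and TXNRD1 under 13. The exceptions for TXNRD1 were the replicate block (edgeR, unadjusted p = 0.0629) and the fit without the EV library of replicate 4 (edgeR, unadjusted p = 0.0579). Over all tested genes, 1 gene passed the adjusted threshold, against 71 with the looser filter, 8 with limma-voom, 5 by the DESeq2 Wald test and 1 to 5 without one library (5 without KRT19-OVE replicate 3, 3 without EV replicate 1).

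Counts moved by a few genes. Genes of the list at an unadjusted p under 0.05 and higher numbered 1, against 0 with the replicate block, 2 under the looser filter, 4 by limma-voom and 0 to 3 without one library. The share of all tested genes at such a p, in either direction, moved as well. It was 5.41% in the main fit (2.56% on the lower side) and 3.08% with the replicate block (1.53% on the lower side). Under the looser filter it was 5.15% (2.21% on the lower side) and by limma-voom 9.14% (4.66% on the lower side). Without one library it was 4.19 to 8.28%. The lower ones numbered 1, against 3 with the looser filter, which added AKR1B10 and ALDH3A1 (2.21% of all genes tested there were lower). Genes with no overlap numbered 2 higher and 0 lower, against 2 to 5 higher and 0 to 1 lower without one library, 1 lower with upper-quartile scaling, and 3 higher with DESeq2 size factors and with the looser and stricter filters. Over all tested genes the shares with no overlap rose from 1.63% to between 2.54 and 3.91% (higher) and from 1.81% to between 2.86 and 3.93% (lower) without one library, and the lower share was 2.28% with upper-quartile scaling. For the other pathway genes, higher calls at an unadjusted p under 0.05 numbered 0, and 0 to 1 without one library. The lower ones numbered 1, against 0 by the DESeq2 Wald test, 2 with the looser filter, 0 with the replicate block and 0 to 2 without one library. Of all tested genes, 2.56% were lower at such a p, against 1.78% by the DESeq2 Wald test (3.97% in either direction), 2.21% with the looser filter, 1.53% with the replicate block and 2.01 to 3.41% without one library. The cause was not tested.

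The median log2 fold change of the 33 tested genes, 0.03 in the main fit, was 0.019 with upper-quartile scaling and 0.049 by limma-voom. Over all tested genes the median was -0.0068 and 0.0039 under these 2 alternatives. Of the 33 tested genes, 21 kept their direction under all alternatives. Reversals to MAFG -0.018, TXN 0.017, FTH1 0.012, UGDH -0.061 and ABHD4 0.049 came with limma-voom, and NQO1 was -0.0054 with upper-quartile scaling. Leaving out one library gave log2 fold changes from -0.0075 to 0.076 for KEAP1, -0.032 to 0.047 for MAFG, -0.0099 to 0.022 for NQO1, -0.039 to 0.0089 for TXN, -0.043 to 0.15 for SRXN1, -0.060 to 0.50 for AKR1C2, -0.068 to 0.023 for TKT, -0.049 to 0.015 for FTH1, -0.042 to 0.12 for ABCC2, -0.051 to 0.029 for EPHX1, -0.061 to 0.062 for UGDH and -0.042 to 0.059 for ABHD4. Of the 21 genes that kept their sign, 17 moved by over 1.5 times without at least 1 library, with -0.34 to -0.049 for AKR1C1, 0.059 to 0.23 for GCLM, 0.045 to 0.23 for SLC7A11, 0.0058 to 0.075 for SQSTM1, 0.0011 to 0.061 for PRDX1, 0.012 to 0.052 for FTL, -0.049 to -0.0018 for CBR1, 0.035 to 0.12 for OSGIN1, 0.016 to 0.057 for GCLC, 0.089 to 0.21 for ME1, 0.059 to 0.13 for PIR, 0.068 to 0.14 for TRIM16L, 0.11 to 0.26 for CBR3, -0.085 to -0.038 for ABCC3, 0.065 to 0.13 for GSR, -0.083 to -0.0057 for PGD and -0.081 to -0.0068 for TALDO1. The lowest value of MAFG, AKR1C2, UGDH, GCLM, SLC7A11 and GSR and the highest of TKT, FTH1, ABHD4, PGD, TALDO1, PRDX1, ABCC1, OSGIN1 and HMOX1 came without KRT19-OVE replicate 3.

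No pairing by replicate number was seen, since deviations of same-numbered libraries correlated at -0.111, -0.0239, -0.160 and 0.0567. With the replicate block no gene of the list passed the adjusted threshold (0 calls). Without division by gene length 10 of the 39 genes were high, with GSR in the middle class, GCLC in the upper and CBR3 in the lower 50%, and lengths from the annotation gave no separate value because they equal those of the table.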
